A study of Mus musculus with 9 samples.

Results

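The Taar genes encode trace amine-associated receptors and lie together on mouse chromosome 10, with unrelated genes on both sides. The genes described here are 10 of those non-Taar neighbours. Eya4, Rps12, Slc18b1, Vnn3 and Vnn1 lie on the low-coordinate side of the cluster, and Stx7, Moxd1, Enpp1, Enpp3 and Epb41l2 lie on the high-coordinate side. They were chosen by position, and all 10 were found among the 24421 genes of the raw count table, with Epb41l2 listed under its older symbol Epb4.1l2. RNA was sequenced from whole MOE (main olfactory epithelium, the sensory tissue of the nose) of mice aged 14 days after birth, labelled C57BL/6. The study also describes its mouse lines, this deletion among them, as being on mixed C57BL/6J and 129 backgrounds. The mice came from a line lacking TAAR enhancer 2, a regulatory element between Taar6 and Taar7a that was removed with CRISPR-Cas9 in C57BL/6J zygotes. Mice with no deletion (WT), with the deletion on 1 chromosome (heterozygous, het) and on both (homozygous, homo) gave 3 libraries each. A single knockout line was established, the methods describe the WT animals as littermates, and both sexes were used although the labels give none.

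An enhancer raises transcription of genes that may lie a long way from it on the same chromosome. Its neighbours on the chromosome are therefore a natural place to ask whether its loss reaches genes outside the receptor cluster. Their roles vary. Eya4 is a transcriptional coactivator and phosphatase that acts with homeodomain partners, Rps12 is a protein of the small ribosomal subunit, and Slc18b1 is a vesicular polyamine transporter. Vnn1 and Vnn3 are vanins, enzymes that split pantetheine into pantothenate (vitamin B5) and cysteamine. Stx7 is a syntaxin of late endosomes, Moxd1 is a copper-dependent monooxygenase related to dopamine beta-hydroxylase, and Epb41l2 is a protein 4.1 that ties membranes to the cytoskeleton. Enpp1 and Enpp3 are ectonucleotide pyrophosphatases at the cell surface: Enpp1 makes pyrophosphate from extracellular ATP and limits mineralization, and Enpp3 is a marker of basophils and mast cells.

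In the mm10 genome the 10 genes span 2.42 Mb of chromosome 10. Distances are given from the nearer end of the stretch between Taar6 and Taar7a (23985647 to 23992404), which holds the element. On the low side, Eya4 (23102963 to 23350786, minus strand) lies 635 kb away. Rps12 (23785183 to 23787275, minus strand) lies 198 kb away and Slc18b1 (23796986 to 23827968, plus strand) 158 kb away. Vnn3 (23851462 to 23869843, plus strand) lies 116 kb away and Vnn1 (23894688 to 23905343, plus strand), the nearest of the 10, 80.3 kb away. On the high side, Stx7 (24149302 to 24190222, plus strand) lies 157 kb away and Moxd1 (24223517 to 24302790, plus strand) 231 kb away. Enpp1 (24637914 to 24712159, minus strand) lies 646 kb away, Enpp3 (24772406 to 24842823, minus strand) 780.0 kb away and Epb41l2 (25359798 to 25523519, plus strand) 1367 kb away. All 10 are annotated as protein-coding in GENCODE M21, from which these positions were taken.

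Total counts ranged from 20527992 to 32262005 per library (median 26174388), and a count of 3, used as the floor, equalled 0.0928 to 0.147 CPM (counts scaled for depth with TMM). These limits cover counting error only. Markers of mature olfactory sensory neurons summed to between 6874 and 7927 CPM, so the labelled tissue was present in every library. Libraries of replicate number 1 stood apart from the others in all 3 genotypes: 1771 of 19775 genes, or 8.96%, were called between them and the other libraries, and 0 of the 10 neighbours. WT replicate 3 stood apart in immune markers, which are given beside the vanin genes. In the labels, nothing beyond the replicate number identifies separate animals, and p-values measure the spread between these libraries. In whole tissue, fewer cells of a type and less RNA per cell cannot be told apart.

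The DNA just before the annotated start is shown for 3 of the neighbours. Vnn3 and Enpp3 are the genes with an entry whose unadjusted p was lowest, and Stx7 is the nearest neighbour on the high side. RefSeq (GRCm38.p6) holds 11 promoter entries for 9 of the 10 genes, and none for Vnn1. The Enpp3 entry starts inside the longer GENCODE gene. Each line gives the 250 bases before the start, and capitals mark matches to the motifs named below.
Vnn3 (chr10:23851212-23851461, plus strand): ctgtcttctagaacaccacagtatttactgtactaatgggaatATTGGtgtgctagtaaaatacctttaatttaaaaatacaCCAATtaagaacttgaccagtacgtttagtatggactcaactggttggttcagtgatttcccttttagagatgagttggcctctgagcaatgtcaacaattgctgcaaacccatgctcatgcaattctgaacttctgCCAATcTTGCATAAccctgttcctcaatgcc
Enpp3 (chr10:24836196-24836445, minus strand): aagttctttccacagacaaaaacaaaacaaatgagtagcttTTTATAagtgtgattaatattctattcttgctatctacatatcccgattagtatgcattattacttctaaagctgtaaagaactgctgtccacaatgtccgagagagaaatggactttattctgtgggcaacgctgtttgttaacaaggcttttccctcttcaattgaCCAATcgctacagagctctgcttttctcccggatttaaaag
Stx7 (chr10:24149039-24149288, plus strand): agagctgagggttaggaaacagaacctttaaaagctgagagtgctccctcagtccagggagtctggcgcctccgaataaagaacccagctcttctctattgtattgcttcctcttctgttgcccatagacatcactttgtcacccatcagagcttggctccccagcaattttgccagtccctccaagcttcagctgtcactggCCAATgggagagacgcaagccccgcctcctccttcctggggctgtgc

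Both strands of all windows of 300 bases, from 250 before to 50 after the start, were searched for 6 motifs. The CCAAT box (CCAAT) was found in 5 of the 11 windows of neighbours (Vnn3, both entries of Stx7, Moxd1 and Enpp3), against 37.4% of all 32851 windows. The C/EBP motif (TTGCNNAA) was found in Vnn3 and Enpp1, against 10.8% of all windows, and in Vnn3 it follows the last CCAAT box. The NF-kB motif (GGANTTTCC) was found in Rps12 alone, against 1.25% of all windows. The TATA box (TATAAA) was found only in Enpp3, on the opposite strand and 209 bases before the start, against 13.6% of all windows. The Ebf motif (CCCNNGGG) was found in Rps12, Slc18b1, 1 entry of Stx7 and Moxd1, against 13.7% of all windows. The homeodomain core TAATTA was found in 0 of the 11 windows, against 5.29% of all windows. A match is a description of these letters and not of a bound site.

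The neighbours were expressed at very different levels. Per kb of their longest coding transcript, Rps12 was highest, with a mean of 206 RPKM over the 9 libraries, followed by Epb41l2 at 72.2, Stx7 at 33.3 and Eya4 at 21.6. The ranges of these 4 genes over the 9 libraries did not overlap. Slc18b1 (12.8 RPKM), Enpp1 (10.8) and Moxd1 (10.7) formed a middle group in which each overlapped the next. Enpp3 (1.72 RPKM), Vnn3 (1.32) and Vnn1 (1.03) were lowest, and their ranges overlapped too. Among all tested genes ranked by CPM, Epb41l2 was at percentile 98.0 and Vnn3 at 25.4.

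**Figure D1:**
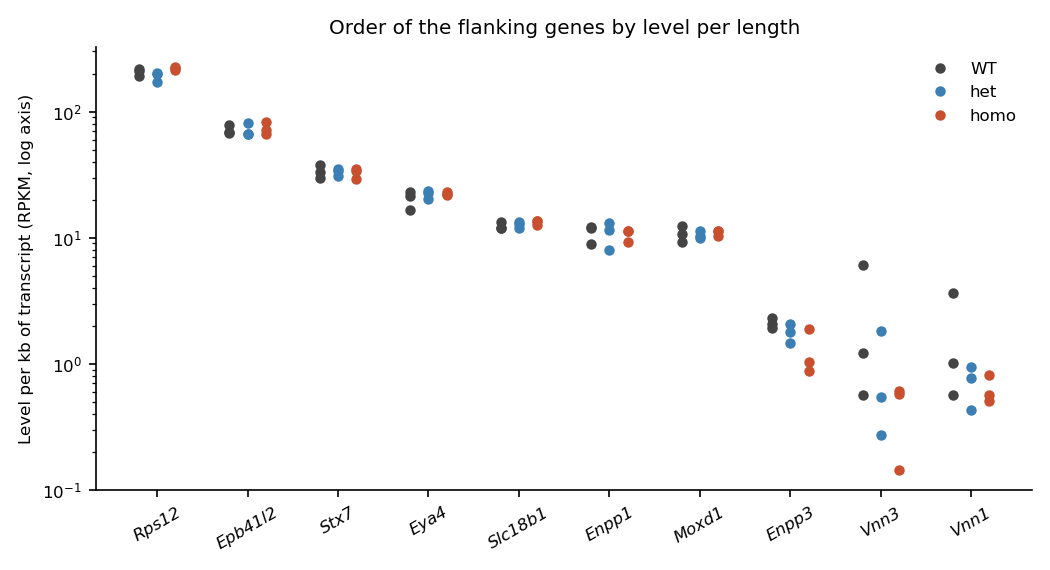
Level per kb of transcript (RPKM, log axis) of the 10 neighbouring genes in order of their mean, with each point a library coloured by genotype (WT, het, homo; 3 libraries each). Rps12 lies above 170 RPKM in every library, 7 genes lie above 7 RPKM in every library, and Enpp3, Vnn3 and Vnn1 lie below the others.

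The level of Rps12 carries an uncertainty of its own. Of the 535 windows of 50 bases in its transcript, 16.4% were found in no other annotated gene, and GENCODE M21 names 25 Rps12 pseudogenes, 0 of them with a row in the count table. How reads that fit several genes were counted is not stated. For the other 9 genes between 98.7% (Enpp3) and 100% of windows were unique.

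The first comparison asked which neighbours depended on TAAR enhancer 2 when both copies were missing. In homo against WT, 7 of the 10 neighbours kept close to their WT level, and Vnn3, Vnn1 and Enpp3 had lower means. None of the 10 was called, where a call needed both a fold change over 1.5 and a Benjamini-Hochberg adjusted p under 0.05 in edgeR's quasi-likelihood test. Over all genes, 4 of 19775 were called, or 0.0202%. At an unadjusted p under 0.05 there were 3 neighbours (Vnn3, Vnn1 and Enpp3), against 3.45% of all genes. Leaving out 1 library moved that count to 0 without homo replicate 3, to 1 without homo replicate 2 (Vnn3) or WT replicate 3 (Enpp3), and to 2 without WT replicate 2, het replicate 2 or homo replicate 1. With DESeq2 0 neighbours were called and the same 3 had an unadjusted p under 0.05. With limma-voom 0 were called and Enpp3 alone was under 0.05. The median log2 fold change of the 10 was -0.01 against 0.00 for all genes, with 5 values above 0 and 5 below.

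For comparison, Taar6 and Taar7a, the genes that bound the interval of the element, fell to 10.2% and 19.7% of WT. Their log2 fold changes were -3.29 and -2.34, with adjusted p of 3.22e-04 and 0.0233 by the edgeR quasi-likelihood test. For 7 of the 10 neighbours the 95% interval of the homo to WT ratio lay within 1.5-fold in either direction, which was so for 50.2% of all genes. Across these 7 genes the intervals ran from 0.716 (Enpp1) to 1.34 (Eya4) times the WT level. A change larger than that was therefore outside the interval for Eya4, Rps12, Slc18b1, Stx7, Moxd1, Enpp1 and Epb41l2. For Vnn3, Vnn1 and Enpp3 the data set no such limit.

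**Figure D2:**
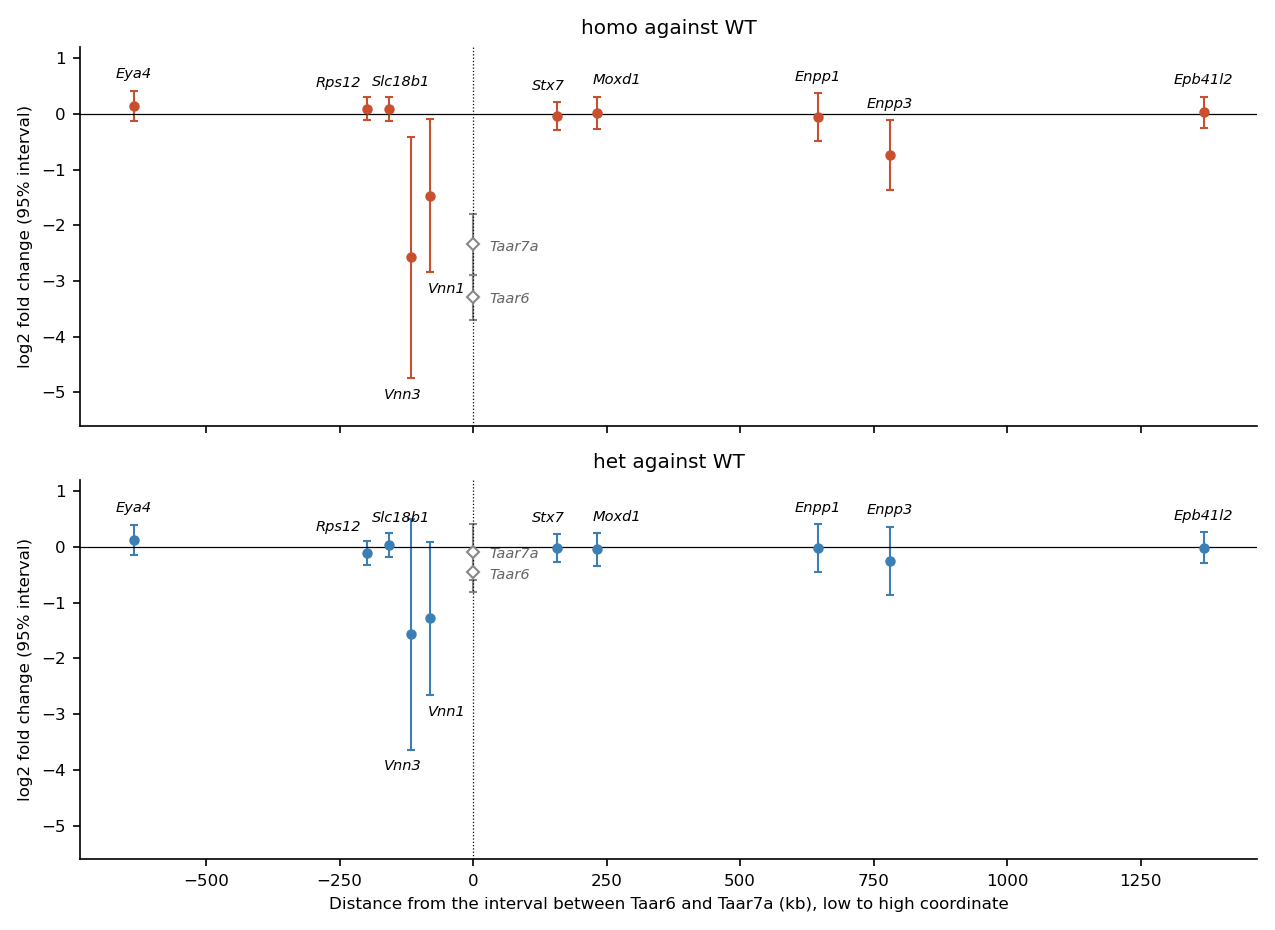
Log2 fold change (y axis) of each neighbour against its distance in kb from the interval between Taar6 and Taar7a (x axis, low to high coordinate), for homo against WT (top) and het against WT (bottom). Points are estimates from the edgeR fit, bars are 95% intervals, and open diamonds show Taar6 and Taar7a at the interval itself. The 7 neighbours other than Vnn3, Vnn1 and Enpp3 sit between -0.11 and 0.14 in both panels.

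Stx7 and Slc18b1 are the nearest neighbours expressed at a moderate or high level on either side. Slc18b1 had 34.2, 38.0 and 33.7 CPM in WT replicates 1, 2 and 3, 34.1, 37.7 and 36.6 in het, and 36.0, 38.4 and 38.5 in homo. The ranges of the 3 genotypes overlapped. Homo against WT gave a log2 fold change of 0.09 (95% interval -0.13 to 0.31).

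Stx7 had 103, 130 and 114 CPM in WT, 106, 117 and 120 in het, and 101, 121 and 116 in homo. In each genotype replicate 1 was the lowest library. Stx7 in homo was 97.6% of WT, a log2 fold change of -0.04 (-0.28 to 0.21).

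Moxd1 had 38.6, 33.0 and 28.4 CPM in WT, 34.6, 30.5 and 32.0 in het, and 34.6, 31.6 and 35.1 in homo. WT held both the highest and the lowest library. Moxd1 in homo differed from WT by a log2 fold change of 0.02 (-0.27 to 0.31).

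Rps12 had 127, 111 and 122 CPM in WT, 116, 119 and 99.6 in het, and 125, 131 and 129 in homo. The homo libraries overlapped those of WT and lay above all 3 het libraries. Its log2 fold change was 0.09 (SE 0.09) in homo against WT and 0.20 (SE 0.09) in homo against het, where the unadjusted p of the edgeR quasi-likelihood test was 0.0597 and the adjusted p was 1. Blocking on the replicate number left the homo to het value at 0.20, with an unadjusted p of 0.0362. Without het replicate 3, the lowest library, it was 0.125 with an unadjusted p of 0.221 by the same test. Het against WT was then -0.031.

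Eya4 had 113, 122 and 88.1 CPM in WT, 121, 107 and 125 in het, and 122, 116 and 117 in homo. WT replicate 3 was the lowest of the 9 libraries. Eya4 in homo had a log2 fold change of 0.14 (-0.14 to 0.42), which was 0.01 without WT replicate 3.

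Epb41l2 and Enpp1 had libraries that followed the replicate number. Epb41l2 had 346, 301 and 299 CPM in WT, 354, 292 and 292 in het, and 365, 291 and 311 in homo. Replicate 1 was the highest library in all 3 genotypes. Enpp1 had 60.7, 81.1 and 82.3 CPM in WT, 53.8, 78.7 and 88.2 in het, and 62.5, 76.3 and 77.2 in homo, and here replicate 1 was the lowest library in all 3 genotypes.

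With genotype in the model, the log2 difference of replicate number 1 from the others was -0.45 for Enpp1, 0.25 for Epb41l2 and -0.21 for Stx7. The adjusted p values by the edgeR quasi-likelihood test were 0.00181, 0.00483 and 0.0164, and the differences were below the 1.5-fold limit. With that limit 0 of the 10 neighbours were called, against 8.96% of all genes. The share of all genes under an adjusted p of 0.05 without it was not counted. Whether this difference sets these genes apart from other genes can therefore not be said. The other 7 neighbours had adjusted p from 0.0901 (Vnn1) upwards. By genotype, Enpp1 and Epb41l2 differed from WT by -0.05 and 0.03 in homo. Within number 1, homo Enpp1 was 103% of WT, and within numbers 2 and 3 it was 93.9%. The same values for Epb41l2 were 106% and 100%.

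**Figure D3:**
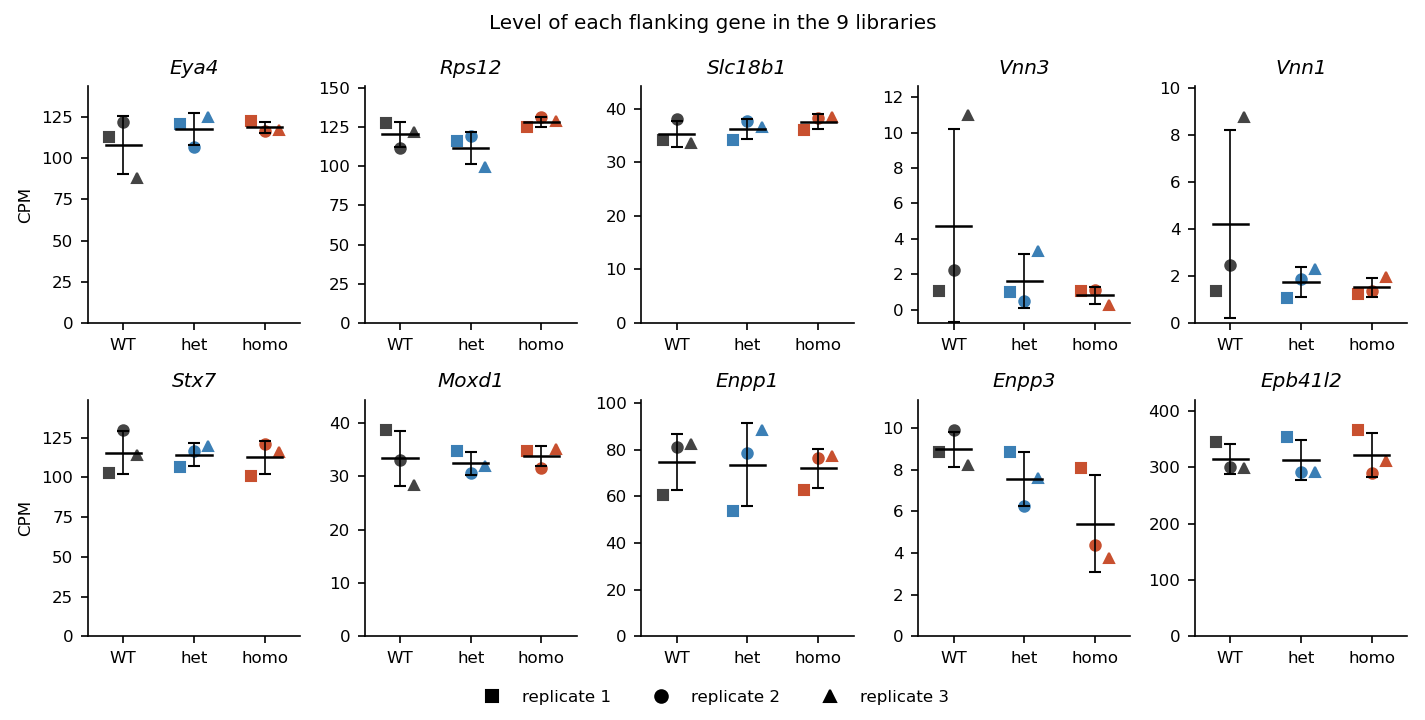
CPM (y axis) of each neighbour in the 9 libraries, by genotype, with squares, circles and triangles for replicates 1, 2 and 3, the long line at the mean and the error bar at 1 SD (n = 3). WT replicate 3 is the highest library for Vnn3 and Vnn1, homo replicates 2 and 3 are the lowest for Enpp3, and replicate 1 is the lowest for Enpp1 and the highest for Epb41l2 in every genotype.

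Enpp3 was the only neighbour whose homo libraries all lay below the WT libraries, a pattern held by 2.71% of all genes. In the opposite direction, 0 neighbours had all homo libraries above WT, against 2.97% of all genes. Enpp3 had 181, 320 and 223 raw counts in WT, 187, 166 and 192 in het, and 178, 123 and 101 in homo. In CPM these were 8.88, 9.90 and 8.22 in WT, 8.85, 6.27 and 7.61 in het, and 8.07, 4.41 and 3.75 in homo. Homo replicates 2 and 3 were well below all other libraries, while homo replicate 1 was just under the lowest WT library and within the het range.

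The mean of Enpp3 was 228 ± 21.8 normalized counts in WT and 136 ± 58.4 in homo (SD, n = 3), and the fitted log2 fold change was -0.74 (SE 0.28, 95% interval -1.36 to -0.12). The unadjusted p was 0.0254 and the adjusted p was 1 by the edgeR quasi-likelihood test. In het it was 84.1% of WT, with a log2 fold change of -0.25 (-0.87 to 0.37). Without homo replicate 1 the homo to WT value was -1.14 with an unadjusted p of 5.39e-04 and an adjusted p of 0.693. Without homo replicate 3 it was -0.52 with an unadjusted p of 0.0996, and over all alternatives the lowest adjusted p was 0.685. With the replicate block it was -0.80 with an unadjusted p of 0.00669, and homo against het was then -0.53 with an unadjusted p of 0.0442.

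The homo to WT ratio of Enpp3 differed between the sets of libraries. Within number 1 homo was 90.9% of WT, with 1 library each. Within numbers 2 and 3 it was 45.1%, and het was 76.6%. The difference between the sets was not tested.

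Markers of mast cells and basophils, which carry Enpp3, had summed levels that overlapped between the genotypes. The 10 genes summed to between 132 and 209 CPM in WT, 130.1 and 173 in het, and 117 and 180 in homo. Gene by gene, 7 of the 10 had a negative log2 fold change in homo against WT, with a median of -0.49, 1 with an unadjusted p under 0.05 and 0 called by edgeR. The sum rests mainly on genes that other cells also use, among them Hdc at 38.8 to 127 CPM and Gata2 at 26.1 to 53.0 CPM per library. The most specific were low: Fcer1a had 0 to 5 counts and Mcpt8 3 to 21 counts per library. The part of these cells in the Enpp3 values was not tested.

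Obp2a and Obp2b, 2 of the 8 listed markers of secretory glands, were lowest in the same libraries as Enpp3. The odorant-binding protein Obp2a had 990, 1075 and 1077 CPM in WT, 1268, 422 and 1119 in het, and 954, 370 and 365 in homo. Obp2b had 928, 1362 and 1304 CPM in WT, 1243, 552 and 1211 in het, and 884, 442 and 467 in homo. Homo replicates 2 and 3 and het replicate 2 were the lowest libraries of Enpp3, Obp2a and Obp2b. The other genes of the gland list did not follow this order as a set. Obp1a was lowest in homo replicate 1 (260 CPM), Bpifb9b in WT replicate 3 (793 CPM) and Muc5b in WT replicate 1 (433 CPM). Dcpp1 was highest in homo replicate 3 (13.6 CPM), while Aqp5 and Sox9 were lowest there (83.2 and 20.7 CPM). Of the 8 genes of the list, 7 had a negative log2 fold change in homo against WT, with a median of -0.79, 1 with an unadjusted p under 0.05 and 0 called by edgeR. The list summed to 6753 to 13490 CPM in WT and 4797 to 7794 in homo. The part of gland cells in the Enpp3 values was not tested. Of 15 marker lists, blood alone had summed levels that did not overlap between WT (14.7 to 23.4 CPM) and homo (24.0 to 25.9 CPM), and 4 of its 5 genes are listed at 0 in every library, which leaves Alas2 alone.

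The vanin genes had the largest fold changes of the 10 and the largest spread. Vnn3 had 21, 72 and 298 raw counts in WT replicates 1, 2 and 3, 21, 13 and 84 in het, and 23, 31 and 7 in homo. In CPM these were 1.03, 2.23 and 11.0 in WT, 0.993, 0.491 and 3.33 in het, and 1.04, 1.11 and 0.260 in homo. WT replicate 3 was far above all other libraries, het replicate 3 was next, and WT replicate 1 lay within the homo range.

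The mean of Vnn3 was 120 ± 137 normalized counts in WT libraries, 40.7 ± 38.6 in those of het mice and 20.3 ± 11.9 in those of homo mice (SD, n = 3). The log2 fold change was -2.57 (SE 0.96) in homo, with an unadjusted p of 0.0276 and an adjusted p of 1 by the edgeR quasi-likelihood test, and -1.57 (SE 0.92) in het. Without WT replicate 3 these values were -1.05 and -0.04. Without het replicate 3 the het value was -2.70. With the replicate block the homo value was -1.90, with an unadjusted p of 0.0556. Within number 1 homo was 101% of WT, and within numbers 2 and 3 it was 10.4%, a difference that was not tested.

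Vnn1 had 28, 80 and 238 raw counts in WT, 22, 49 and 58 in het, and 27, 38 and 53 in homo. In CPM these were 1.37, 2.47 and 8.77 in WT, 1.04, 1.85 and 2.30 in het, and 1.22, 1.36 and 1.97 in homo. Again WT replicate 3 was the highest library, and WT replicate 1 lay within the het and homo ranges.

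Vnn1 had a log2 fold change of -1.47 (SE 0.61) in homo, with an unadjusted p of 0.0403, and -1.28 (SE 0.61) in het, with an unadjusted p of 0.0654. The adjusted p was 1 for both by the edgeR quasi-likelihood test. Without WT replicate 3 these values were -0.36 and -0.17. Homo replicate 3 was the lowest library for Vnn3 and the highest homo library for Vnn1. Over the 9 libraries, deviations from the genotype means (log2 of CPM + 0.5) correlated between the vanin genes with r = 0.744 (9 libraries). WT replicate 3 was the highest library for both genes, and a value without it was not computed.

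WT replicate 3 was also the library with the highest immune marker levels. Neutrophil markers summed to 5502 CPM there and to between 480 and 1444 in the other 8 libraries, with 11 of the 12 genes highest in WT replicate 3. Ltf (2721 CPM) and Lcn2 (1715 CPM) held the largest parts of the sum in that library. In WT replicate 1 the sum was 1349 CPM, of which Ltf held 964, and S100a9 was at 17.9. In homo replicate 2 the sum was lower, 744 CPM, and S100a9 was higher, at 82.5. The sum therefore did not order the other libraries as S100a9 did. Acute inflammation markers summed to 933.5 CPM there, 160 in het replicate 3 and between 17.4 and 60.0 in the other 7, with all 10 genes highest in WT replicate 3. Macrophage markers summed to 585 CPM against 215 to 311, with 7 of 8 genes highest. The sum of sustentacular cell markers was at its lowest, 5833 CPM against 7936 to 9826. Sec14l3 (842 CPM against at least 2123), Cyp2g1 (1117 against at least 1830), Ermn and, narrowly, Cyp1a2 were lowest in WT replicate 3. Cyp2a5, Muc2, Notch2 and Gsto1 were not. Of the acute inflammation genes, 8 of 10 had an unadjusted p under 0.05 in homo against WT by edgeR, against 3.45% of all genes. Their median log2 fold change was -3.72, and 0 were called. WT replicate 1 nonetheless had the lowest sum of this list, 17.4 CPM, against 20.3 to 51.2 in homo. The part of immune cells in the vanin values was not tested.

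**Figure D4:**
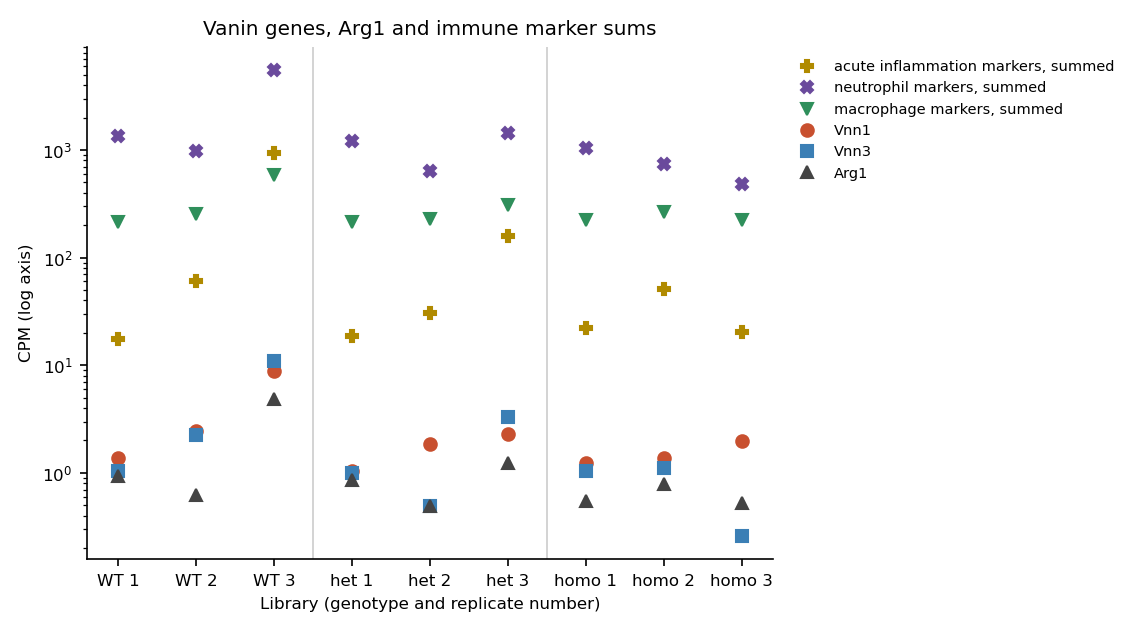
CPM (log axis) of Vnn1, Vnn3 and Arg1, and summed CPM of acute inflammation, neutrophil and macrophage markers, in each of the 9 libraries by genotype and replicate number. All 6 measures have their highest value in WT replicate 3.

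The genes most like each low neighbour were taken by Pearson correlation of the same deviations over the 9 libraries. For Vnn3 they were Slc13a2 (r = 0.995), Fcamr (0.995), Iigp1 (0.992), Pigr (0.991) and Itln1 (0.990). Pigr carries immunoglobulin A across epithelia and Iigp1 is an interferon-induced GTPase. Without WT replicate 3 and het replicate 3 the values ran from 0.965 to 0.992. The genotype means still came from all 9 libraries, so these values cannot show whether the likeness holds without those libraries. For Vnn1 they were Fam65b (0.993), Sla (0.990), Vit (0.990), Man1a (0.990) and Fam71f2 (0.987).

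For Enpp3 the most similar genes were Rgs22 (0.984), Gpr3 (0.983), Chmp4c (0.974), Hs3st5 (0.973) and Sos2 (0.969). Without homo replicates 2 and 3 these ran from 0.962 to 0.976, again with genotype means from all libraries and the same limit. High values were common among so many genes: r passed 0.9 for 318 of 19774 genes with Vnn3, 659 with Vnn1, 73 with Enpp3 and 1729 with Epb41l2. These correlations share the libraries and their depth.

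The second comparison asked whether loss of a single copy of the element was enough to change a neighbour. In het against WT 0 of the 10 neighbours were called by the edgeR quasi-likelihood test, and 0 of 19775 genes, or 0%. At an unadjusted p under 0.05 there were 0 neighbours, against 1.28% of all genes. DESeq2 called 0 neighbours and gave an unadjusted p under 0.05 for Vnn1 (0.0399), while limma-voom called 0 and gave none under 0.05. With the replicate block, 0 were called and Vnn1 had an unadjusted p of 0.0233. The 95% interval lay within 1.5-fold for the same 7 genes as in homo, against 51.5% of all genes.

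In het, Eya4 had a log2 fold change of 0.13 (-0.15 to 0.40) and Rps12 of -0.11 (-0.32 to 0.10). Slc18b1, Stx7, Moxd1, Enpp1 and Epb41l2 lay between -0.04 and 0.03. The median of the 10 was -0.03 against -0.01 for all genes. Taar6 in het was at 72.9% of WT and Taar7a at 94.2%, and neither was called.

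In homo against het, 0 neighbours were called by the edgeR quasi-likelihood test, against 0.00506% of all genes, and 0 had an unadjusted p under 0.05, against 0.662%. DESeq2 called 0 and gave none under 0.05, while limma-voom called 0 and gave Enpp3 (0.0486). The 95% interval lay within 1.5-fold for 7 of 10 neighbours, against 54.9% of all genes. Vnn3 was at 49.8% of het (log2 fold change -1.01, -3.24 to 1.23) and Vnn1 at 87.6%. A test over both genotype coefficients called 0 neighbours, against 0.00506% of all genes, and the lowest unadjusted p were 0.0600 (Vnn3), 0.0650 (Vnn1) and 0.0704 (Enpp3). The comparisons with WT share the WT libraries.

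Other non-Taar genes lie between Eya4 and Epb41l2. RefSeq annotates 29, and 7 had a row in the raw table, 4 of them protein-coding. In homo against WT 0 of the 7 were called, and Arg1, arginase of the urea cycle and of macrophages, alone had an unadjusted p under 0.05. Arg1 (24915207 to 24927470) had 0.932, 0.619 and 4.90 CPM in WT, 0.852, 0.491 and 1.23 in het, and 0.544, 0.789 and 0.520 in homo.

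WT replicate 3 was highest for Arg1 too, and WT replicate 2 lay within the homo range. Its log2 fold change was -1.80 (SE 0.74) in homo, with an unadjusted p of 0.0379 and an adjusted p of 1 by the edgeR quasi-likelihood test, and -0.31 without WT replicate 3. The genes Ctgf, Med23 and Akap7 had log2 fold changes of 0.02, 0.07 and 0.13. The low-count genes Snora33 and Snord100, both inside Rps12, and Mir6905 had 0.18, 0.28 and -1.28, with 95% intervals that held 0. In het 0 of the 7 were called and 0 had an unadjusted p under 0.05.

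Genes of the same families or pathways were set beside each neighbour. In homo against WT, 0 genes of these 8 lists were called by the edgeR quasi-likelihood test, and an unadjusted p under 0.05 occurred only in the list of ENPP ectoenzymes and phosphate handling. Of its 11 tested genes, 10 had a negative log2 fold change, with a median of -0.11. Nt5e, which makes adenosine from AMP outside the cell, was at 73.6% of WT (log2 fold change -0.44, SE 0.13, unadjusted p 0.00894, adjusted p 1). Its libraries did not overlap, from 19.2 to 22.8 CPM in WT and from 15.1 to 15.5 in homo. Homo libraries all below WT were seen for 2.71% of all genes, and Nt5e was named for the lowest p of its list. The phosphate transporter Slc20a1 was at 82.2%, with 44.2, 50.7 and 77.3 CPM in WT and 47.6, 48.0 and 46.1 in homo, so that only WT replicate 3 stood clearly above the homo libraries. In het 10 of the 11 were also negative, with a median of -0.08.

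The 30 other small ribosomal subunit proteins had a median of 0.01 in homo, with 17 above 0. In het 29 of the 30 were negative, with a median of -0.08, and Rps12 itself was at -0.11. In homo against het 28 of the 30 were positive, with a median of 0.11, and Rps12 was at 0.20. With an unadjusted p under 0.05 there were 0 genes of this list in each comparison. Of the list, Rps27l (-0.13) and Rps25 (-0.12) had the lowest p in homo against WT.

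Of the Eya genes and their homeodomain partners, 10 were tested, with a median of -0.05 and with Eya3 at 0.13 and Eya1 at 0.20. The 8 genes listed for the pantetheine and coenzyme A pathway had a median of 0.01 and a range from -0.10 (Ppcs) to 0.04, with Pank2 at -0.07. The 11 endosomal SNAREs had a median of 0.01, with Vamp8 at -0.21 and Vamp3 at -0.12. The copper monooxygenases Moxd2 and Pam were at 0.28 and -0.05. Of the protein 4.1 family, Epb41l4b was at -0.10 and Epb41l3 at 0.09. The vesicular monoamine transporters Slc18a2 and Slc18a1 were at -0.92 (SE 0.52) and 0.20 (SE 0.28).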

How the data were processed

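Whole MOE RNA was sequenced in 9 libraries, 3 per genotype, with groups and replicate numbers taken from the sample labels. The study gives n = 3 mice for its RNA-seq of this line. Per the methods and processing notes, libraries were polyA-selected and directional, reads were trimmed with Trimmomatic 0.36 and mapped to mm10 with HISAT2 2.1.0. The authors deposited raw counts per gene symbol from featureCounts (Subread 1.6.2). They also deposited a signal, normalized counts from DESeq2 1.20.0, which equal the raw counts divided by a single factor per library. The annotation release, the strand option and the handling of reads that fit several genes are not given in the sources used here. All columns matched a library.

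Raw counts of genes with at least 10 counts over the 9 libraries (19775 genes) were tested with the edgeR 4.0.16 quasi-likelihood test in R 4.3.3, with TMM scaling, 1 spread estimate for all libraries and Benjamini-Hochberg adjustment over all genes tested. Tests were two-sided. The script was tested on simulated data. CPM used TMM library sizes, RPKM divided CPM by the longest coding GENCODE M21 transcript in kb, and means ± SD are of deposited normalized counts. DESeq2 1.42.0, limma 3.58.1 (voom), other scalings and filters, covariates, the replicate block and each library left out were alternatives. Fits of replicate numbers 2 and 3 alone and the lists of mast cell and basophil and of tuft and microvillous genes were added after seeing the data.

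The 10 genes, the marker and family lists and the motifs were chosen with earlier results of these data known. Named are the 10 genes, other genes of the interval with an unadjusted p under 0.05, the 2 genes of lowest p in each family list, Taar6 and Taar7a, and, for neighbours whose highest library in a genotype exceeded its lowest more than 2-fold, the 5 genes of highest correlation. The other genes of the interval, Fcer1a, Mcpt8, Hdc, Gata2 and Alas2 were named after their values were seen. So were the single genes of the secretory gland, sustentacular and neutrophil lists. Whether same-numbered libraries deviated together from their genotype means was checked over 16156 genes with a mean of at least 1 CPM. For numbers 1, 2 and 3, r was 0.682, 0.457 and 0.586 for WT with het. For het with homo it was 0.807, 0.360 and 0.195, and for WT with homo 0.532, 0.320 and -0.085. With 0.1 as the limit for every number, het counted as paired with WT and with homo, and WT with homo did not. Crossed numbers were as high or higher in places. They reached 0.583 for het replicate 2 and homo replicate 3 and 0.527 for het replicate 3 and homo replicate 2. Between het and homo only number 1 therefore stands apart. For WT replicate 2 and homo replicate 3 the crossed value was 0.531. Between WT and het no crossed value exceeded 0.061 (WT replicate 2 and het replicate 3).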

Additional observations from a re-analysis of the deposited data

How the results depend on the processing

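The 33 results (6 counts of calls and 27 log2 fold changes) were recomputed in 690 values under the alternatives. The counts of called neighbours and interval genes were 0 under all of them, the replicate block included, in which 0 neighbours were called in any comparison. Over all genes, the 4 calls of homo against WT became 0 to 6 and the single call of homo against het became 0 to 5. No log2 fold change passed the threshold, and 10 of 20 neighbour values kept their sign throughout. All 35 changes of sign were in values of at most 0.18 in size. With library totals as the scaling, het against WT became 0.0085 for Stx7, 0.0048 for Enpp1 and 0.0117 for Epb41l2. With the Xist level as a covariate it became 0.0189 for Stx7 and 5e-04 for Enpp1. With replicate numbers 2 and 3 alone, it became 0.0283 for Moxd1 and 0.0333 for Enpp1, and homo against WT became -0.0012 for Epb41l2, -0.0134 for Ctgf and -0.0198 for Med23. With 1 library left out, homo against WT ran from -0.1695 to 0.183 for Ctgf, -0.1715 to 0.041 for Enpp1, -0.0663 to 0.115 for Epb41l2, -0.0919 to 0.1473 for Moxd1, -0.0495 to 0.3943 for Snora33 and -0.1029 to 0.052 for Stx7. Het against WT ran from -0.1727 to 0.1588 for Enpp1, -0.1082 to 0.0738 for Epb41l2, -0.0063 to 0.2297 for Eya4, -0.1506 to 0.0886 for Moxd1, -0.0069 to 0.0926 for Slc18b1 and -0.0806 to 0.0778 for Stx7. The cause was not tested.

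The homo to WT values of Vnn3, Vnn1 and Arg1 ranged over the alternatives from -3.26 to -1.05, from -1.86 to -0.36 and from -2.25 to -0.31, each nearest to 0 without WT replicate 3.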
